A study of Homo sapiens with 3 samples.

Results

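The genes examined here encode the parts of the lysosome, of its proton pump and of the autophagy machinery that feeds it. They were chosen by symbol from a list of 56 genes, with no cutoff on their values but with earlier results of these data known. Of the listed genes, 52 were among the 17329 gene rows of the table. Of these 52, 50 had a mean of at least 50 normalized counts over the 3 libraries and were compared. CTSS and GABARAP lay under that floor and are given by value, and MITF, CTSL, ATP6V0C and ULK2 were not analysed here. The RNA came from Jurkat cells, an established human T-lineage leukaemia line, cultured for 48 hours under 3 conditions. These were standard RPMI medium with serum (control), the same medium with sodium oxamate at 50 mM, which inhibits lactate dehydrogenase (oxamate), and medium with both 50 mM sodium oxamate and L-sodium lactate at 10 mM (oxamate+lactate). The series set out to relate lactate-dependent histone lactylation to transcription. With a single library per condition, differences could not be set against a spread between cultures, and p-values were not computed. All 3 groups are the same cell line, and no group with a matched amount of another sodium salt was analysed here, so oxamate and its added sodium cannot be told apart.

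Lysosomes are acidic organelles in which hydrolases break down proteins, lipids and glycans, and the V-ATPase pumps the protons that acidify them. The pump has a membrane sector, V0, through which protons pass, and a cytosolic sector, V1, which hydrolyses ATP. Autophagy encloses cytoplasm in a double membrane that fuses with lysosomes, and it runs from the ULK1 kinase through a lipid kinase complex and a ubiquitin-like conjugation system to the ATG8 proteins on that membrane. Transcription factors of the MiT/TFE family, among them TFEB and TFE3, are known to drive many of these genes from E-box sites when nutrients or lysosomal function are short.

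Values are normalized read counts as the authors deposited them, and a ratio is log2((value + 1)/(value + 1)) between libraries. They summed over genes to between 8171633 and 8821115 per library, the members held between 0.365% and 0.388% of that sum, and the number of reads behind a library is unknown. Across the 12292 genes over the floor the median ratio was 0.08 for oxamate against control, -0.09 for oxamate+lactate against oxamate and -0.01 for oxamate+lactate against control. The 18 ERCC spike-in RNAs with a mean of at least 100, which were added after RNA extraction, had an SD of 0.13, 0.11 and 0.19 in the same ratios. In bulk RNA, fewer cells of a kind and less RNA per cell cannot be told apart. The T lineage held 12 of 13 listed markers at a summed 22082 to 24956, while of 6 monocyte and macrophage markers CD68 alone had a row, at 6 in the control library, 13 with oxamate and 19 with oxamate+lactate. Listed B-cell markers summed to 92, 69 and 87 and epithelial markers to 92, 96 and 83 in the same order. The fibroblast marker COL1A1 had 202, 202 and 165, and no listed erythroid marker had a row.

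As a whole the gene set differed little between the oxamate and control libraries, and single members differed in both directions. Of the 50 members over the floor, MCOLN1, ULK1 and CTSA were at least 1.5-fold higher in the oxamate library than in control, which is 6% of members against 7.48% of all genes. GABARAPL1, WIPI1 and OPTN were at least 1.5-fold lower, again 6% of members, against 3.98% of all genes. At a smaller fold, 15 members were at least 25% higher (30% against 23.1% of all genes) and 5 were at least 20% lower (10% against 11.8%). No member was 2-fold different, against 1.21% of all genes higher and 0.879% lower. These shares lie near the background, so the count of changed members does not set the group apart. The median ratio of the members was 0.19, against 0.08 for all genes, and 30 of 50 lay above the median of all genes.

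**Figure D1:**
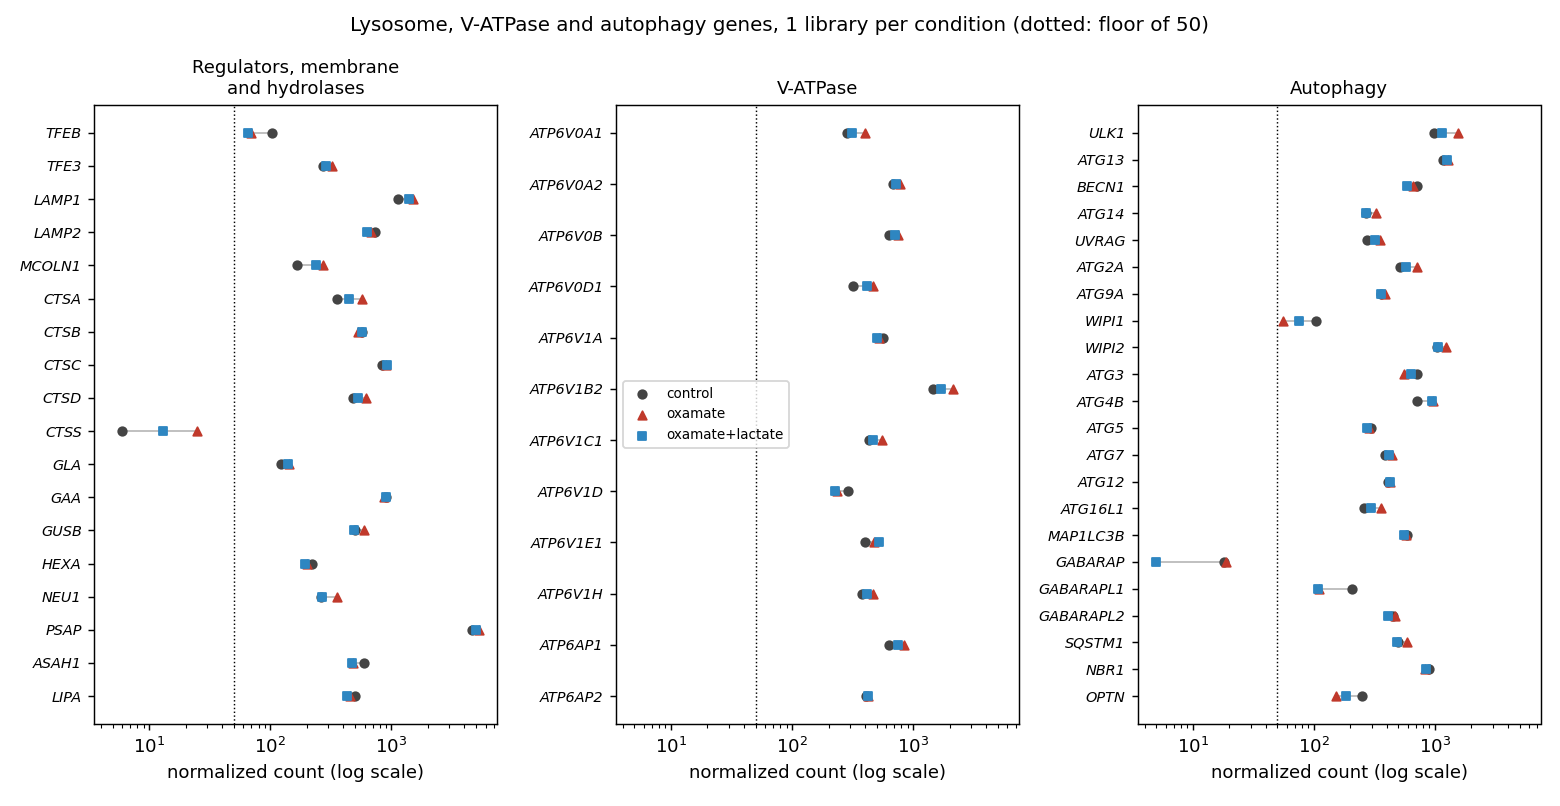
Normalized count of each of the 52 members (horizontal, log scale) in the control (circle), oxamate (triangle) and oxamate+lactate (square) library, with 1 library per condition and no error bar. Most members keep within a narrow span, and CTSS and GABARAP lie left of the dotted floor of 50.

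Among the 3 larger classes, the median ratio of oxamate against control was highest for the V-ATPase. Its 12 members over the floor had a median of 0.28, with 10 above 0 and 9 above the median of all genes. In 15 V-ATPase genes outside the member list the median was 0.03, with 6 above the median of all genes. The higher median is thus that of the listed subunits. The 12 hydrolases and their cofactors had a median of 0.15, with 7 above 0 (58.3%) and 7 above the median of all genes. The 21 autophagy members had a median of 0.13, with 13 above 0 (61.9%) and 11 above the median of all genes. Of all genes 59.6% lay above 0, with a median of 0.08, so these 2 classes lay near the background. The direction above 0 held for the median of each of the 3 classes under each scaling tried. With 1 library per condition the difference between the classes was not tested. The 3 autophagy members past 1.5-fold lower are also the 3 lowest ratios of all members, and no hydrolase or V-ATPase member was 20% lower in oxamate.

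The ratios of the regulators TFEB and TFE3 had opposite signs, and that of TFE3 was small. TFEB had 104 normalized counts in the control library, 70 with oxamate and 66 with oxamate+lactate, so that both treated libraries lay below control. Its ratio was -0.56 for oxamate and -0.65 for oxamate+lactate, both against control, and the second is past 1.5-fold. TFE3 had 271, 321 and 289, with ratios of 0.24 (1.18-fold) and 0.09, the second smaller than the ERCC SD of 0.19. Among lysosomal membrane proteins, MCOLN1, which encodes the calcium channel TRPML1, had 166 in the control library, 273 with oxamate and 239 with oxamate+lactate. This was the highest ratio of all members for oxamate (0.71, 1.64-fold) and for oxamate+lactate (0.52), both against control. In GENCODE 29 its exons share 6 bases with PNPLA6 and 169 with another coding gene on the same strand. LAMP1, the main glycoprotein of the lysosomal membrane, had 1134, 1512 and 1393, with both treated libraries higher (0.41 and 0.30). LAMP2, its relative that also serves chaperone-mediated autophagy, had 732, 680 and 630 (-0.11 and -0.22). The first of these ratios is smaller in size than the ERCC SD of 0.13 and has no clear direction.

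The promoter stretches of 6 members are shown because they hold the 8-base E-box form TCACGTGA that MiT/TFE factors are known to bind. Each runs from 200 bases before to 20 after the RefSeq start on GRCh38.p14, 5′ to 3′ on the gene's strand, with every CACGTG and TCACGTGA in capitals. MCOLN1 lies at chr19:7522424-7522643 (plus strand), CTSA at chr20:45891135-45891354 (plus), LAMP1 at chr13:113297039-113297258 (plus), ATP6V0D1 at chr16:67481138-67481357 (minus), GAA at chr17:80101381-80101600 (plus) and ATG3 at chr3:112561943-112562162 (minus).
MCOLN1: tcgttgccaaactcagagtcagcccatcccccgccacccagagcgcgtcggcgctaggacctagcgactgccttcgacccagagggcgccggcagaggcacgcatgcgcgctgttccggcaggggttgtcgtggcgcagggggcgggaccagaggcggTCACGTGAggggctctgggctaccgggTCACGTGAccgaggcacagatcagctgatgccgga
CTSA: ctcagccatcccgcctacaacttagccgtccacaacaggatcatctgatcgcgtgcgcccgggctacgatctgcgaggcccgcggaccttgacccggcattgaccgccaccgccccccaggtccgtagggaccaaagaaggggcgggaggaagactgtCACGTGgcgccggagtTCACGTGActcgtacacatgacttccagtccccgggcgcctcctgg
LAMP1: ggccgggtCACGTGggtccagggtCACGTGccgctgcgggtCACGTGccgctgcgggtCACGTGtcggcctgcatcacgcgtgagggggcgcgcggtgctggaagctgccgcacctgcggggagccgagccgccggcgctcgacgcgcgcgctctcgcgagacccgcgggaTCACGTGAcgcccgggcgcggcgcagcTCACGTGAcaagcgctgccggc
ATP6V0D1: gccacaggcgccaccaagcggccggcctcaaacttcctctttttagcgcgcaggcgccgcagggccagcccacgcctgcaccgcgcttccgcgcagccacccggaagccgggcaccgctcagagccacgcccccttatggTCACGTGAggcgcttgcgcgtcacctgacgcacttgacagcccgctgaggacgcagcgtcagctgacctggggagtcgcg
GAA: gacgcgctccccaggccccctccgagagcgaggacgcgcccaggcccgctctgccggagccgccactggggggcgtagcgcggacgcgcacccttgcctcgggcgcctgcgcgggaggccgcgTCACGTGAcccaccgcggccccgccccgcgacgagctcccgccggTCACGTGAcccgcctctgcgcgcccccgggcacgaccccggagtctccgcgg
ATG3: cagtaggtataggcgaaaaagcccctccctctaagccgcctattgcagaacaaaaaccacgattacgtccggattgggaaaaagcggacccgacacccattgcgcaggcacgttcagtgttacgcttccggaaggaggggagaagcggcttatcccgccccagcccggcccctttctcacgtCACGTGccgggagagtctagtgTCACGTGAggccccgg
In MCOLN1 both TCACGTGA copies lie close to the start, with their first base 42 and 15 bases before it. LAMP1 holds 6 copies of CACGTG, the first 192 bases before the start, and 2 of these are part of TCACGTGA. GAA also holds 2 copies of TCACGTGA, 77 and 32 bases before the start, and in ATG3 the copy lies after the start.

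Both forms read the same on both strands, and CACGTG is the inner part of TCACGTGA. They were searched in the RefSeq windows of 250 bases before to 50 after each start, which matched 41 of the 52 members and 40 of those over the floor. CACGTG was found in 10 of these 40 members (25%), against 13.3% of the 8427 genes over the floor that have a window and 7.26% of all 35116 windows. TCACGTGA was found in 6 (15%), against 2.44% of those genes and 0.98% of windows. For oxamate against control the 10 members with CACGTG had a median ratio of 0.39, and 8 of them lay above the median of all genes. The 30 members without it had a median of 0.13, with 17 above. Over all 1119 genes with CACGTG the median was 0.14, and over those without it 0.07. The 10 are MCOLN1 (0.71), CTSA (0.68), ATP6V0D1 (0.55), NEU1 (0.46), LAMP1 (0.41), CTSD (0.36), ATG14 (0.27), ATP6V0B (0.26), GAA (-0.06) and ATG3 (-0.36). Their transcripts ran from 39.9% GC in ATG3 to 64.1% in GAA. Members with and without CACGTG were not matched for GC content, and its part in the difference was not tested. For oxamate+lactate against control the members with it had a median of 0.16 and those without 0.04. For oxamate+lactate against oxamate the order was the other way, with a median of -0.18 for the members with it, 3 of 10 above the all-gene median, and -0.07 for those without. This ratio shares the oxamate library with oxamate against control, which alone pushes the order the other way. No effect of lactate is therefore read from it. For the longer form TCACGTGA and oxamate against control, the 6 members with it had a median of 0.48, with 4 above the median of all genes. The 34 members without TCACGTGA had a median of 0.19, with 21 above, so the shares above the median of all genes were close. The motifs were chosen with the ratios known, many other factors bind CACGTG, and the match is a description of letters in a window.

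**Figure D2:**
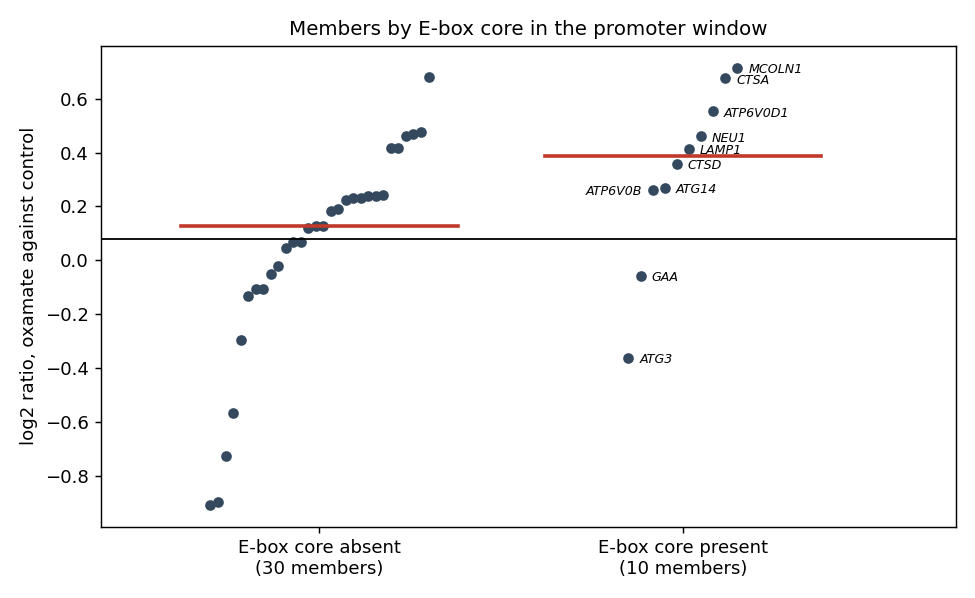
Log2 ratio of oxamate against control (vertical) of the 40 members over the floor that have a promoter window, without (30) and with (10) the E-box core CACGTG; each point is a gene, red bars are group medians (0.13 and 0.39) and the black line is the median of all genes (0.08). Of the members with the core, 8 lie above the black line, and GAA and ATG3 lie below it.

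The response to amino acid shortage was examined with the letters TGATGNAA, the core of the composite element bound by ATF4 and CHOP, on both strands. It was found in none of the 40 members, against 2.58% of the genes with a window and 3.62% of all windows, and this says nothing of sites outside these 300 bases. A list of 12 autophagy genes known as ATF4 or CHOP targets, of which 11 were over the floor, had a median of 0.02 for oxamate against control, beside 0.08 for all genes. None was 1.5-fold different, against 7.48% of all genes higher and 3.98% lower, and in a list of this size that count is near the background. The lowest of them was ATG3 (-0.36) and the highest ATG16L1 (0.46). SQSTM1, one of the best known of these targets, had a ratio of 0.24.

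The hydrolases were split between members higher and members lower in oxamate. CTSA, the carboxypeptidase also called protective protein because it stabilises the sialidase NEU1, had 359 normalized counts in the control library, 574 with oxamate and 446 with oxamate+lactate (0.68 for oxamate against control, 1.60-fold). CTSA shares 244 exon bases with NEURL2 and 200 with PLTP on the other strand, and these had at most 42 and 49 normalized counts in a library. NEU1 itself had 260, 358 and 269, so that the oxamate library stood above the other two (0.46). CTSD, the main aspartic protease of the lysosome, had 481, 617 and 532 (0.36), and 1166 of its 2123 exon bases (54.9%) are shared with another coding gene on its own strand. Ratios between 0.1 and 0.3 were those of GLA, alpha-galactosidase A, at 122, 144 and 140 (0.24), GUSB, beta-glucuronidase, at 503, 590 and 496 (0.23), PSAP, the precursor of the saposins, at 4644, 5252 and 4954 (0.18), and CTSC, a dipeptidyl peptidase, at 835, 908 and 924 (0.12). These 4 lie within 0.2 of the median of all genes.

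Of the remaining hydrolases all were lower in oxamate than in control. ASAH1, acid ceramidase, had 590, 484 and 472 and was the lowest (-0.29). HEXA, the alpha subunit of beta-hexosaminidase, had 223, 202 and 195 (-0.14), LIPA, lysosomal acid lipase, had 501, 457 and 434 (-0.13), and CTSB, a cysteine protease, had 576, 530 and 574 (-0.12). GAA, acid alpha-glucosidase, had 904, 869 and 901 (-0.06). None of these 5 was 20% lower, and the ratios of CTSB and GAA are smaller in size than the ERCC SD of 0.13. CTSS, a cysteine protease of antigen-presenting cells, was at 6, 25 and 13 and lies under the floor.

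Of the V-ATPase subunits, the 4 V0 members over the floor all stood above control in the oxamate library. ATP6V0D1, the d subunit that links V0 to the central stalk, had 318 normalized counts in the control library, 467 with oxamate and 413 with oxamate+lactate (0.55). ATP6V0A1, an isoform of the a subunit that lines the proton path, had 286, 398 and 310 (0.48), while the isoform ATP6V0A2 had 679, 772 and 720 (0.18). ATP6V0B, a proteolipid of the rotor ring, had 626, 751 and 707 (0.26). In all 4 the oxamate+lactate library lay between the other two.

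The V1 sector was mixed. ATP6V1B2, the B subunit of the ATP-hydrolysing head, had 1451, 2141 and 1705 (0.56), just short of 1.5-fold. Its catalytic partner ATP6V1A, with which it alternates in the head, had 560, 520 and 507 (-0.11). This ratio is smaller in size than the ERCC SD of 0.13, so ATP6V1A was not raised alongside ATP6V1B2 and has no clear direction of its own. ATP6V1D, of the central stalk, had 287, 234 and 228 and was the lowest V-ATPase member (-0.29), with 253 exon bases shared with EIF2S1 on the other strand. The stalk and regulatory subunits ATP6V1C1 at 432, 549 and 469 (0.35), ATP6V1H at 379, 463 and 415 (0.29) and ATP6V1E1 at 403, 471 and 518 (0.22) were higher. Of the accessory proteins, ATP6AP1, which takes part in pump assembly, had 635, 847 and 754 (0.42), and ATP6AP2, also known as the prorenin receptor, had 405, 425 and 420 (0.07).

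At the start of the autophagy pathway, ULK1, the kinase that starts autophagosome formation, had 974 normalized counts in the control library, 1560 with oxamate and 1147 with oxamate+lactate (0.68 for oxamate against control, 1.60-fold). Its call at 1.5-fold was lost with columns scaled to equal sums (0.58) and with the trend on GC content and length removed (0.48); its transcript has a GC content of 64.2%. ATG13, its partner in the complex, had 1172, 1281 and 1253 (0.13). In the lipid kinase complex, UVRAG had 276, 350 and 319 (0.34) and ATG14, which directs the complex to autophagy, had 271, 327 and 271 (0.27), whereas the scaffold BECN1 had 711, 660 and 586 (-0.11). The ratio of BECN1 is smaller in size than the ERCC SD of 0.13 and has no clear direction. BECN1 shares 502 exon bases with CNTD1 on the other strand.

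Among factors that supply membrane and read its lipids, ATG2A, a lipid transfer protein, had 514, 712 and 573 (0.47), and the scramblase ATG9A had 356, 389 and 358 (0.13). ATG9A shares 1833 of its 4210 exon bases (43.5%) with another coding gene on its own strand. The phosphoinositide binder WIPI1 had 105 in the control library, 56 with oxamate and 76 with oxamate+lactate, 1.86-fold lower in oxamate (-0.90). WIPI1 shares 539 of its 1890 exon bases with ARSG on the other strand, ARSG had 142, 83 and 132, and the part of shared reads in this difference was not tested. Its relative WIPI2, which recruits the conjugation machinery, had 1042, 1224 and 1069 (0.23), the opposite direction.

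In the conjugation system, ATG16L1 had 259, 357 and 296 (0.46) and the protease ATG4B, which trims and recycles ATG8 proteins, had 715, 956 and 949 (0.42). ATG3, the enzyme that passes ATG8 proteins to lipid, had 711, 553 and 637 (-0.36). The other 3 differed little, with ATG7, the activating enzyme, at 385, 439 and 419 (0.19), ATG12 at 408, 428 and 424 (0.07) and ATG5 at 298, 288 and 275 (-0.05). ATG7 shares 1596 exon bases with VGLL4 and ATG12 shares 378 with AP3S1, both on the other strand. ATG4B shares 237 with THAP4, also on the other strand, which had 562, 713 and 624. The part of shared reads in the ATG4B difference was not tested.

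The ATG8 proteins, which coat the forming membrane and bind cargo receptors, had 1 member that stood apart. GABARAPL1 had 207 normalized counts in the control library, 110 with oxamate and 109 with oxamate+lactate, so that both treated libraries were alike and below control (-0.91 and -0.92). It had the lowest ratio of all members in both comparisons with control, at percentile 1.15 and 0.58 of all genes. MAP1LC3B, the LC3 protein used as a marker of autophagosomes, had 584, 575 and 551 (-0.02), and GABARAPL2 had 450, 465 and 412 (0.05). GABARAP was at 18, 19 and 5, and 691 of its 2266 exon bases in GENCODE 29 are shared with another coding gene on its own strand. The sources used here do not say how reads shared between genes were counted, so its level was not taken as that of the gene alone. The same limit holds for CTSD and ATG9A, and over a smaller part of their exons for MCOLN1 and HEXA. HEXA shares 617 of its 6050 exon bases (10.2%) with another coding gene on its own strand.

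Of the cargo receptors, OPTN, which serves the removal of mitochondria and bacteria, had 250 normalized counts in the control library, 151 with oxamate and 183 with oxamate+lactate, 1.65-fold lower in oxamate (-0.72). It shares 147 exon bases with CCDC3 on the other strand, which had 57, 41 and 52. NBR1 had 891, 828 and 845 (-0.11). SQSTM1, the receptor p62, which is also a target of the oxidative stress factor NRF2, had 498, 588 and 482 (0.24), and shares 1384 of its 3476 exon bases (39.8%) with MRNIP on the other strand.

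**Figure D3:**
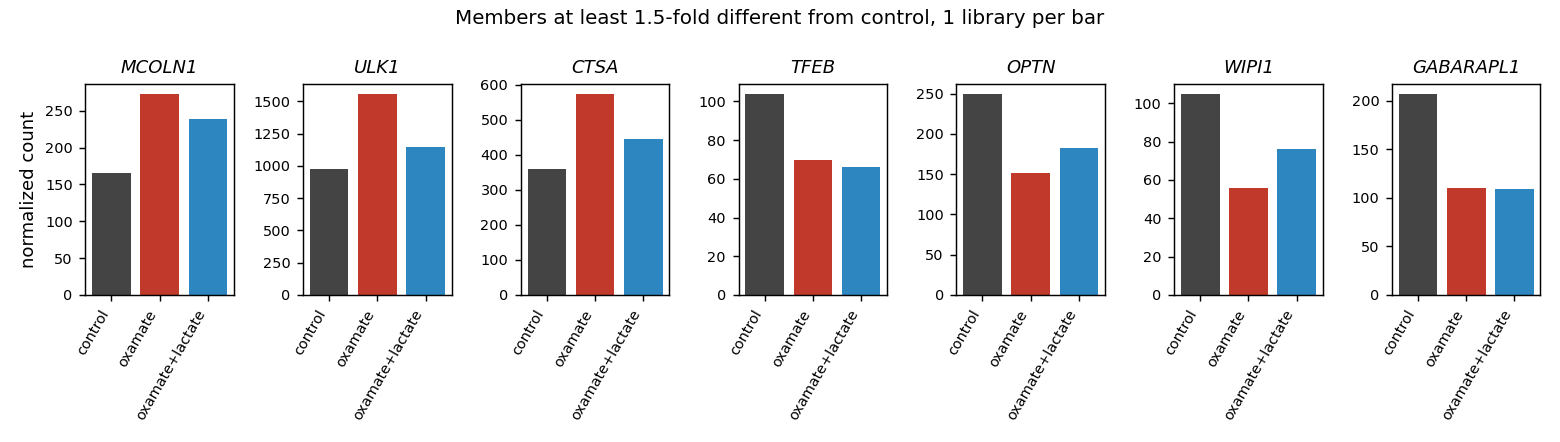
Normalized count (vertical, from 0, own scale per gene) of the 7 members at least 1.5-fold different from control in oxamate or in oxamate+lactate, 1 bar per library and no error bar. MCOLN1, ULK1 and CTSA are highest in oxamate, OPTN and WIPI1 lowest in oxamate, and TFEB and GABARAPL1 have nearly equal values in the 2 treated libraries.

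The floor bears on the lower members. GABARAPL1, WIPI1, OPTN and TFEB have means under 200, and with a floor of 200 no member was 1.5-fold lower in either comparison with control. The 3 members past 1.5-fold higher in oxamate remained at that floor. With columns scaled to equal sums, CTSA and ULK1 fell short of 1.5-fold, MCOLN1 stayed past it, and TFEB was past it on the lower side. With the GC and length trend removed, ATP6V1B2 was past 1.5-fold higher and TFEB past 1.5-fold lower in oxamate. For oxamate+lactate against control, scaling to equal ERCC sums left TFEB short of 1.5-fold lower and took MCOLN1 past 1.5-fold higher. Scaling to equal sums over genes moved the median ratio of all genes for oxamate against control from 0.08 to -0.02.

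With lactate added to oxamate, no member was 1.5-fold different from oxamate alone, against 0.252% of all genes higher and 0.903% lower, nor was any 2-fold different, against 0% and 0.00814%. The members had a median ratio of -0.09, equal to that of all genes to 2 decimals, and 25 of 50 lay above the median of all genes. WIPI1 was at least 25% higher (0.43), as were 2.39% of all genes, and 5 members were at least 20% lower (10% against 8.8% of all genes). These were ULK1 (-0.44), NEU1 (-0.41), CTSA (-0.36), ATP6V0A1 (-0.36) and ATP6V1B2 (-0.33), all of which stood above control in the oxamate library. The next highest ratios were those of OPTN (0.28) and ATG3 (0.20), which were lower in oxamate than in control. Both ratios contain the oxamate library, and that alone pushes them in opposite directions, so no return toward control is read from this order. MCOLN1 (-0.19), LAMP1 (-0.12), TFEB (-0.08), ATG4B (-0.01) and GABARAPL1 (-0.01) differed little between the 2 treated libraries.

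Oxamate+lactate against control shares the control library with the first comparison and the oxamate+lactate library with the second. Here no member was 1.5-fold higher, against 2.99% of all genes, and GABARAPL1 (-0.92) and TFEB (-0.65) were at least 1.5-fold lower, 4% of members against 3.07% of all genes. MCOLN1 (0.52), ATG4B (0.41), ATP6V0D1 (0.38) and ATP6V1E1 (0.36) were at least 25% higher (8% against 11.4% of all genes). At least 20% lower were also WIPI1 (-0.46), OPTN (-0.45) and ATP6V1D (-0.33), 5 members in all (10% against 12.4%). None was 2-fold different, against 0.545% of all genes higher and 0.342% lower. The V-ATPase members had a median of 0.12, with 10 of 12 above 0 (83.3% against 47.9% of all genes). The hydrolases had a median of 0.02 and the autophagy members 0.00, beside -0.01 for all genes. The medians of hydrolases and autophagy members crossed or left 0 with the floor or the GC and length trend, so they have no direction. That of the autophagy members was 0 to begin with, and was -0.02 with no floor and 0.02 at a floor of 200.

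**Figure D4:**
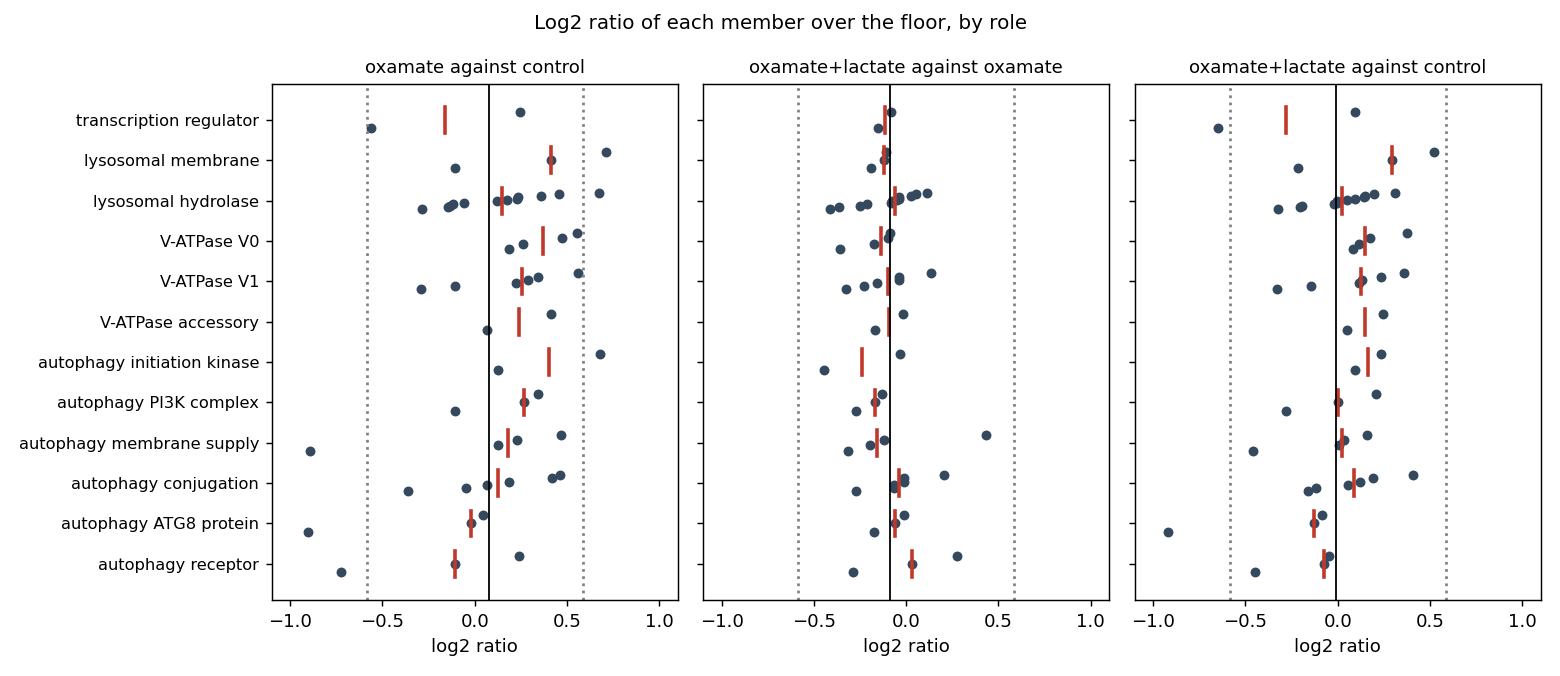
Log2 ratio (horizontal) of each of the 50 members over the floor, by role, in the 3 comparisons; each point is a gene, red bars are role medians, black lines the median of all genes (0.08, -0.09 and -0.01) and dotted lines 1.5-fold. All 4 V0 members lie right of the black line for oxamate against control, and the leftmost points are GABARAPL1, WIPI1 and OPTN.

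Levels were compared between genes per kilobase of the longest GENCODE 29 transcript, in the control library. PSAP was the most abundant member at 1617 normalized counts per kilobase, followed by ATP6V1B2 at 505, GABARAPL2 at 449 and LAMP1 at 420.2. Within the V-ATPase, ATP6V1A stood at 122 and ATP6V0A1 at 69.3, so that subunits of 1 complex differed several-fold in RNA level. TFEB stood at 40.1 and TFE3 at 79.4. Of the ATG8 genes, GABARAPL2 was followed by MAP1LC3B at 217 and GABARAPL1 at 90.2. Transcript length stands in for the length the authors' reads could map to, and multiple isoforms and shared exons limit these levels.

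Other genes of the same pathways were listed in 5 groups that hold no member, 136 genes over the floor in all. For oxamate against control 5 of them were at least 1.5-fold higher and 1 lower, against 7.48% and 3.98% of all genes, and their median was 0.11. Among 39 other lysosomal genes 2 were higher, the sulfatase ARSB at 109, 172 and 129 (0.65) and the cystine exporter CTNS at 187, 289 and 262 (0.63). AGA, at 82, 44 and 74 (-0.88), was the lower one, and it is named because it was the only one, after its values were seen. Among 15 other V-ATPase genes, the assembly factor TMEM199 had 105, 163 and 146 (0.63), with a group median of 0.03, and it shares 1121 exon bases with an antisense gene. Among 35 other autophagy genes, PLEKHM1, an adaptor that joins RAB7 to the fusion machinery of lysosomes, had 473 in the control library, 1230 with oxamate and 1001 with oxamate+lactate. It was 2.60-fold higher in oxamate (1.38) and 2.11-fold higher in oxamate+lactate (1.08), while the row of its pseudogene PLEKHM1P had 380, 342 and 308. Reads that fit both copies cannot be placed with certainty. FYCO1, which couples autophagosomes to kinesin, had 473, 735 and 570 (0.63). For oxamate+lactate against oxamate AGA was 1.5-fold higher (0.74) and none of the 136 was lower, against 0.252% and 0.903% of all genes. For oxamate+lactate against control PLEKHM1 was 1.5-fold higher and none was lower, against 2.99% and 3.07%.

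The mTORC1 kinase and the Rag GTPases hold TFEB and TFE3 in the cytoplasm when amino acids are plentiful. Of 31 of their subunits and positive or negative regulators, none was 1.5-fold different for oxamate against control, and their median was 0.06, beside 0.08 for all genes. None of 16 genes of lysosomal sorting was 1.5-fold different either, and the share of all genes was 7.48% higher and 3.98% lower. Of the sorting genes, 15 of the 16 lay above 0, with a median of 0.19, against 59.6% of all genes above 0. Fewer, 11 of the 16, lay above the median of all genes. The only one below 0 was VPS29, a retromer subunit (-0.47), which is named after its value was seen.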

How the data were processed

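Polyadenylated RNA of 3 Jurkat samples was sequenced after ERCC spike-in RNA had been added to extracts of equal cell numbers, per the labels' protocols. The submitters' processing notes name HTSeq 0.11.2, STAR 2.7.1a and FastQC 0.11.9, and the build hg19, without saying what each was used for. The labels name a NEBNext Ultra library kit, which does not mark strand, and do not say how many cultures stand behind a library. The authors deposited 1 table of 17365 rows, 36 of them ERCC rows, with whole-number values called normalized counts. These were treated as a score that the authors normalized, by a method not given in the sources used here, and rounded. Depth is unknown, so no counting interval is given and no count model was fitted.

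Libraries were grouped by treatment label and compared by ratios with a pseudocount of 1, over genes with a mean of at least 50 (Python 3.11.15, pandas 2.3.3). Genes past 1.5-fold were counted, without a test, beside the share of all genes past that fold. The members, lists and motifs were chosen with earlier results of these data known. All members are named, and other listed genes where 1.5-fold different with a highest value of at least 100. Lengths, GC content and shared exons came from GENCODE 29, on another build than the files, and promoters from RefSeq on GRCh38.p14. The computation was tested on simulated data. Alternatives were other floors (none, 200), pseudocounts (0.5, 10), folds and scalings, removal of the GC and length trend, and means for medians.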

Additional observations from a re-analysis of the deposited data

How the results depend on the processing

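The 9 medians of the V-ATPase, hydrolase and autophagy members moved by less than the SD of the ERCC ratios under every alternative. These SDs (0.13, 0.11 and 0.19) are close to or above the size of most of the medians, so this is a weak check of stability. Of the 81 recomputed medians, 14 were counted as changed in sign, all of them of hydrolase or autophagy members in comparisons with the oxamate+lactate library. Among these are moves away from the autophagy median of 0 for oxamate+lactate against control, which had no sign to change. Of 1062 recomputed ratios of single members and of the members with CACGTG (the latter added after the data were seen), 12 moved by more than that SD, all for oxamate against control with the GC and length trend removed, and none past 1.5-fold changed sign. Counts were less stable. With no floor, 2 members (CTSS and GABARAP) were 1.5-fold lower in oxamate+lactate than in oxamate, and 1 (CTSS) was higher than in control. With a floor of 200, 0 were lower than control in oxamate and 0 in oxamate+lactate, since fewer genes are compared. With equal sums over genes, 1 was higher in oxamate. With equal ERCC sums, 1 was higher (MCOLN1) and 1 lower in oxamate+lactate than in control. Members at least 25% higher and at least 20% lower were 15 and 5 for oxamate against control, 1 and 5 for oxamate+lactate against oxamate, and 4 and 5 for oxamate+lactate against control. At 2-fold, 0 were higher and 0 lower in oxamate, and 0 lower in oxamate+lactate, than in control, against 1.21%, 0.879% and 0.342% of all genes. No paired analysis was possible because each condition has 1 library. Unknown depth limits the low members most.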

Other observations

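GUSB has pseudogene copies among the rows. GUSBP3 had 10 normalized counts in the control library, 58 with oxamate and 82 with oxamate+lactate, while GUSB had 503, 590 and 496. Reads shared by such copies cannot be placed with certainty, and GUSBP3 was named after its values were seen.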
